A study of Homo sapiens with 6 samples.

Results

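The expression of 50 genes of DNA replication, mitosis and cytokinesis was followed in THP-1 macrophages after small interfering RNA (siRNA) was used against a long noncoding RNA, RP11-184M15.1. The genes were taken as a list of 50 symbols, all 50 were in the table of 17042 genes, and all 50 passed the filter on low counts that left 13405 genes for testing. By role the list held 11 genes of origin licensing and the replicative helicase, 10 of DNA and nucleotide synthesis, 6 for cyclins and CDK1, 9 of mitotic kinases, the spindle checkpoint and the anaphase-promoting complex (APC/C), and 14 of chromosomes, spindle and cytokinesis. THP-1 is an established human monocytic leukaemia line. The cells of all 6 libraries were turned into macrophages with 100 ng/mL phorbol ester (PMA) for 24 hours and then given 20 ng/mL IL-4 for 24 hours, and all were wild type apart from the knockdown. For 3 libraries RP11-184M15.1 had been targeted by siRNA before the IL-4 (knockdown) and 3 were controls, for which the labels do not say whether a control siRNA was given. Polyadenylated RNA was sequenced. The labels do not say that the 3 libraries of a group came from separate cultures, so the p-values reflect library-to-library spread that may be technical only.

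A cell that prepares to divide loads the MCM2-7 helicase onto its origins, copies its DNA in S phase, and then condenses, aligns and separates its chromosomes under the control of cyclins, mitotic kinases and the APC/C. The genes for these steps are switched on as a programme, the replication genes mainly through E2F factors at the start of S phase and the mitotic genes later through the MuvB complex with MYBL2 and FOXM1, and in resting cells the DREAM complex keeps both sets low. PMA makes most THP-1 cells leave the cell cycle as they become macrophages. In bulk RNA, fewer cycling cells and less RNA per cell cannot be told apart.

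Library totals ran from 10450043 to 14181343 counts. Levels are given as CPM (counts scaled to a common library size) with TMM factors, a normalisation that sets the bulk of genes equal between libraries. All 10 macrophage markers were in the table and 9 reached 10 CPM, with sums of 4830 to 5100 CPM in controls and 4840 to 5060 CPM in knockdowns. Within those sums 4 of the 10 passed in edgeR's quasi-likelihood test: CD14 rose by 0.34 ± 0.06 (adjusted p = 0.003), CD163 by 0.40 ± 0.08 (0.0127) and ITGAX by 0.23 ± 0.05 (0.0146), and LYZ fell by 0.40 ± 0.06 (0.000928) on the log2 scale. Leaving out control replicate 2 or knockdown replicate 2 ended the calls of CD163 and ITGAX, with an adjusted p of up to 0.119 and 0.121, as did leaving out knockdown replicate 1 for CD163 and knockdown replicate 3 for ITGAX. In the main test 3 of the 10 were higher (30.0%, against 1.22% of all genes tested) and 1 lower (10.0%, against 1.61%). The part of these changes in the result for the 50 genes was not tested. Of 12 markers of T cells, B cells, fibroblasts, epithelium and other cell types 6 had no row (CD3E, CD3D, MS4A1, COL1A2, EPCAM and ALB), PECAM1 alone reached 10 CPM, and the other 5 summed to 7.71 to 9.05 CPM in controls and 7.21 to 16.0 CPM in knockdowns. The upper end of 16.0 came with HBB, at 7.55 CPM in knockdown replicate 3 and at most 0.0962 CPM in the other libraries. The table has no row under the name RP11-184M15.1, and the level of the siRNA's target is not analysed here.

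Most of the replication and mitosis genes had a log2 fold change slightly below 0 in the knockdown, and 1 of the 50 passed the test. That gene was MCM2, a subunit of the replicative helicase, which fell. The log2 fold change was below 0 for 47 of the 50 genes (45 with RLE or upper-quartile factors or in DESeq2, which put CDC6 and AURKB just above 0), where 50.6% of all genes tested were below 0, and the median was -0.14 (a change of -9.36%) against -0.0019 over all genes. At an adjusted p under 0.05 in edgeR's quasi-likelihood test with Benjamini-Hochberg adjustment, 1 of 50 members was lower and 0 were higher, where 1.61% of all genes tested were lower and 1.22% were higher. That share is close to the background. At an unadjusted p under 0.05, 13 of 50 were lower and 0 higher, against 8.21% and 6.89% of all genes. All 3 knockdown libraries lay below all 3 controls for 13 members, against 10.4% of all genes, and above them for 0, against 9.61%. DESeq2 passed 0 of the 44 members for which it gave an adjusted p (7 lower and 0 higher at an unadjusted p under 0.05), and gave none for MCM10, CDC45, GINS2, AURKB, UBE2C and KIF20A, which its own filter set aside. In limma-voom MCM2 alone passed (13 lower and 0 higher at an unadjusted p under 0.05). The individual differences were small, from -0.46 for MCM10 to 0.24 for CCNE1, with standard errors (SE) from 0.06 to 0.32. The genes that did not lie below 0 were all cyclins: CCNE1, CCNE2 at 0.02 and CCNB2 at 0.03. Without control replicate 3, the library with the highest levels, 37 of 50 were below 0 and the median was -0.10.

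**Figure D1:**
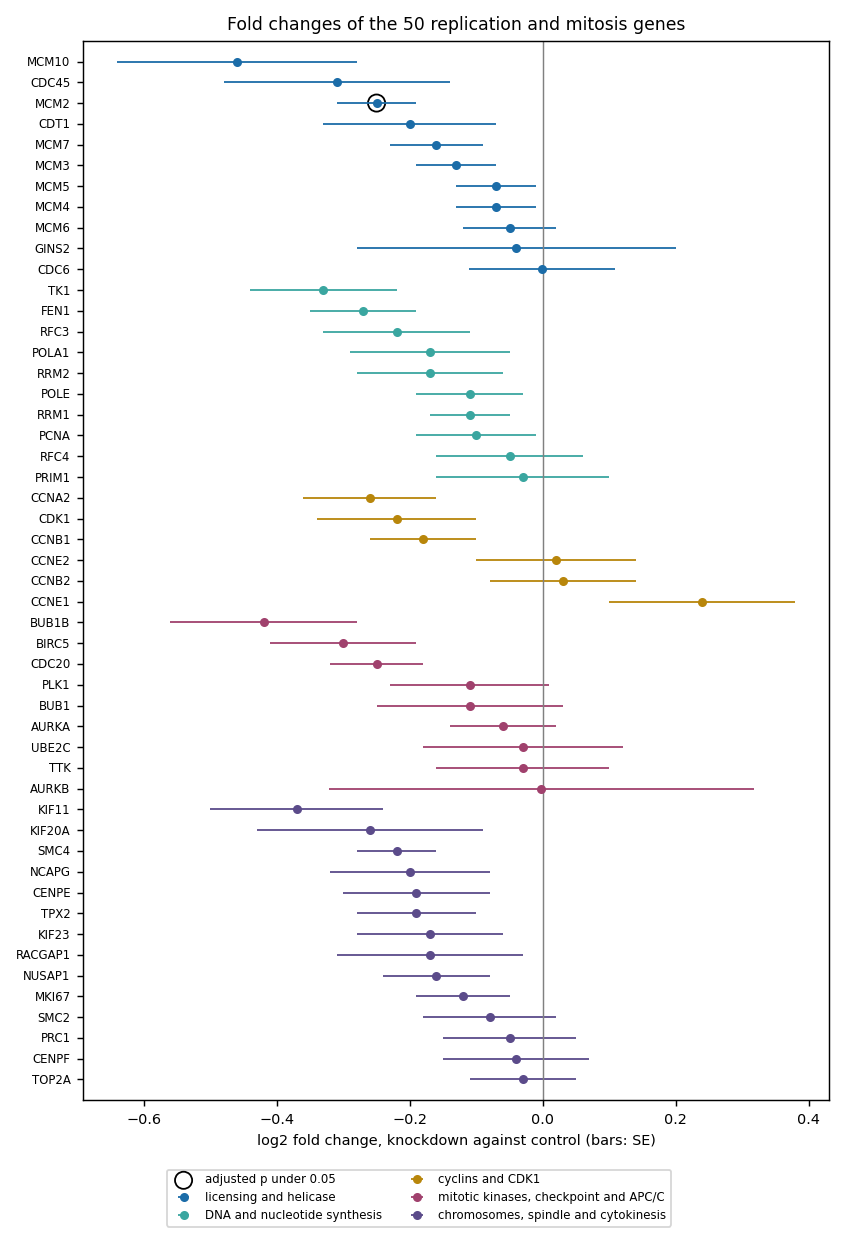
Log2 fold change (x axis, knockdown against control) of each of the 50 genes (y axis), grouped and coloured by role and ordered by value within a role. Points are edgeR estimates, bars are 1 SE, the ring marks the gene with an adjusted p under 0.05 (MCM2), and 47 of 50 points lie to the left of 0, with CDC6 and AURKB so close to it that RLE or upper-quartile factors put them to its right.

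Starting with the genes that open replication, the licensing and helicase group had a median log2 fold change of -0.13. All 11 members lay below 0 (CDC6 just above it with RLE or upper-quartile factors and in DESeq2). In edgeR 1 passed (9.09%, against 1.61% of all genes tested that passed as lower). At an unadjusted p under 0.05 in edgeR, 4 were lower (36.4%, against 8.21%). MCM2 (ENSG00000073111.13, chr3:127598223-127622436, plus strand, GRCh38) had 52.1, 58.5 and 57.0 CPM in control replicates 1 to 3 and 47.5, 47.1 and 45.9 CPM in knockdown replicates 1 to 3. The groups did not overlap, and the knockdown libraries were close together. The means were 55.9 ± 3.38 (SD, n = 3) and 46.8 ± 0.846 CPM, and MCM2 fell by 0.25 ± 0.06 (SE) on the log2 scale (edgeR quasi-likelihood, Benjamini-Hochberg adjusted p = 0.0363). The call was thin: with each library left out in turn the adjusted p ran from 0.00608 (without control replicate 1) to 0.212, and only without control replicate 1 did it pass. In DESeq2 the adjusted p was 0.0800. MCM2 overlaps TPRA1 and AC023593.1 on the opposite strand, and the sources do not say whether the counting used strand.

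The other helicase subunits differed less, though all were below 0. MCM3 had 61.9, 67.5 and 66.6 CPM in controls against 61.5, 57.2 and 60.9 CPM in knockdowns, and MCM7 had 42.5, 42.0 and 45.0 against 35.3, 41.9 and 38.7 CPM. In both genes the knockdown libraries lay below the controls, by a narrow margin in each, and neither passed (edgeR adjusted p of 0.312 and 0.322). MCM4 had 70.3, 78.5 and 82.7 CPM in controls and 73.2, 73.7 and 73.0 CPM in knockdowns. Control replicate 1 lay below all the knockdown libraries for MCM4, and its log2 fold change was -0.07 ± 0.06 (edgeR adjusted p = 0.63). MCM5 had 69.6, 67.9 and 74.9 CPM against 68.1, 68.9 and 65.8 CPM, with -0.07 ± 0.06 (adjusted p = 0.65), and MCM6 had -0.05 ± 0.07. MCM7 shares its locus with AP4M1 on the opposite strand and with 3 microRNA genes of its own strand.

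The factors that load and fire the helicase had fewer counts and larger errors. MCM10, which joins the helicase as it starts to unwind, had the largest difference of the 50 genes: 4.82, 6.45 and 6.06 CPM in controls against 4.94, 3.93 and 3.78 CPM in knockdowns. Knockdown replicate 1 lay above control replicate 1, so the groups overlapped, and the log2 fold change of -0.46 ± 0.18 did not pass (edgeR adjusted p = 0.208). CDC45, the helicase cofactor, had -0.31 ± 0.17 and the loader CDT1 -0.20 ± 0.13. The loader CDC6 was level, at 9.64 ± 0.713 CPM in controls and 9.63 ± 0.267 CPM in knockdowns (SD, n = 3), and GINS2 had -0.04 ± 0.24.

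Among the enzymes of DNA and nucleotide synthesis all 10 lay below 0, the median was -0.14 and 0 passed in edgeR, DESeq2 or limma-voom. At an unadjusted p under 0.05 in edgeR, 2 were lower (20.0%, against 8.21% of all genes tested). Those were FEN1 and TK1. FEN1 (ENSG00000168496.3, chr11:61792637-61797244, plus strand) trims the flaps of Okazaki fragments. It had 23.6, 22.5 and 23.3 CPM in controls and 20.0, 19.4 and 18.3 CPM in knockdowns. The gap between the groups was wider than the range within either, and the log2 fold change was -0.27 ± 0.08 (edgeR adjusted p = 0.104). FEN1 overlaps FADS2 on its own strand and TMEM258 on the other and has a pseudogene copy, so its counts are uncertain. TK1, the thymidine kinase that salvages thymidine in S phase, had 15.4, 18.5 and 19.8 CPM against 13.4, 15.0 and 14.2 CPM, without overlap. Its log2 fold change was -0.33 ± 0.11 (edgeR adjusted p = 0.119, and 0.0212 without control replicate 1).

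PCNA, the sliding clamp, had 21.1, 20.6 and 19.2 CPM in controls and 19.9, 18.7 and 18.4 CPM in knockdowns. The groups overlapped, at -0.10 ± 0.09 (edgeR adjusted p = 0.666), and PCNA has 3 pseudogene copies that could share its reads. The catalytic subunit of the leading-strand polymerase, POLE, had 23.4, 24.5 and 25.2 against 22.4, 23.2 and 22.0 CPM. All its knockdown libraries lay below the controls, and the difference of -0.11 ± 0.08 did not pass (edgeR adjusted p = 0.548). RRM1, the large subunit of ribonucleotide reductase, had 56.2, 51.3 and 55.2 CPM against 48.7, 52.8 and 49.3 CPM, with -0.11 ± 0.06 (edgeR adjusted p = 0.455). The small subunit RRM2 had -0.17 ± 0.11, the clamp loader subunits RFC3 and RFC4 -0.22 ± 0.11 and -0.05 ± 0.11, the primase PRIM1 -0.03 ± 0.13 and its partner polymerase POLA1 -0.17 ± 0.12.

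The cyclins split, with 3 of 6 genes below 0 and a median of -0.08. In edgeR, DESeq2 and limma-voom 0 passed, and 2 were lower at an unadjusted p under 0.05 in edgeR (33.3%, against 8.21% of all genes tested). CCNB1 (ENSG00000134057.14, chr5:69167010-69178245, plus strand), the cyclin that drives entry into mitosis with CDK1, had 21.4, 21.6 and 22.5 CPM in controls and 19.1, 19.6 and 19.1 CPM in knockdowns. The groups were tight and apart, at -0.18 ± 0.08 (edgeR adjusted p = 0.306). CCNA2, the cyclin of S phase and G2, had 16.1, 17.0 and 15.7 against 13.4, 12.7 and 14.9 CPM, also apart, at -0.26 ± 0.10 (edgeR adjusted p = 0.207). CDK1 itself had 10.7, 14.5 and 13.1 against 10.4, 10.9 and 11.7 CPM, with overlap and -0.22 ± 0.12 (edgeR adjusted p = 0.421).

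The E cyclins, which act at the passage from G1 to S, were the other way or level. CCNE1 had 7.37, 7.45 and 9.62 CPM in controls and 10.7, 9.47 and 8.70 CPM in knockdowns. Control replicate 3 lay among the knockdown libraries, and the log2 fold change of 0.24 ± 0.14 did not pass (edgeR adjusted p = 0.434). CCNE2 had 16.5, 13.7 and 14.0 against 16.5, 12.4 and 16.1 CPM, at 0.02 ± 0.12 (edgeR adjusted p = 0.953). CCNB2, the other B cyclin, had 10.5, 12.1 and 10.5 CPM in controls and 11.2, 11.7 and 10.8 CPM in knockdowns, at 0.03 ± 0.11.

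All 9 mitotic kinases, checkpoint and APC/C genes lay below 0 (AURKB just above it with RLE or upper-quartile factors, in DESeq2, in limma-voom and with the replicate block), with a median of -0.11. In edgeR, DESeq2 and limma-voom 0 of 9 passed, and 3 were lower at an unadjusted p under 0.05 in edgeR (33.3%, against 8.21% of all genes tested). CDC20 (ENSG00000117399.13, chr1:43358955-43363203, plus strand), the activator that turns the APC/C on at anaphase, had 73.5, 84.4 and 86.1 CPM in controls and 72.7, 70.5 and 61.4 CPM in knockdowns. Control replicate 1 was barely above knockdown replicate 1, and the groups were otherwise far apart. The means were 81.4 ± 6.85 and 68.2 ± 5.99 CPM (SD, n = 3), at -0.25 ± 0.07 (edgeR adjusted p = 0.0768, and 0.00698 without control replicate 1). BUB1B, a checkpoint kinase-like protein that restrains CDC20, had 12.4, 14.3 and 15.0 against 9.56, 8.84 and 13.0 CPM. Knockdown replicate 3 lay among the controls. The log2 fold change of BUB1B was -0.42 ± 0.14 (edgeR adjusted p = 0.128, and 0.039 without knockdown replicate 3), and its locus is shared with the readthrough gene BUB1B-PAK6.

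BIRC5, the survivin subunit of the chromosomal passenger complex, had 13.1, 13.7 and 13.6 CPM against 11.7, 11.9 and 9.28 CPM, without overlap, at -0.30 ± 0.11 (edgeR adjusted p = 0.201). The kinase of the same complex, AURKB, had 1.56 ± 0.49 CPM in controls and 1.56 ± 0.374 CPM in knockdowns (SD, n = 3). AURKA, the kinase of the spindle poles, had 43.7, 39.4 and 42.7 against 44.6, 37.2 and 39.3 CPM. Its highest and lowest libraries were both knockdowns, and the log2 fold change was -0.06 ± 0.08 (edgeR adjusted p = 0.802). The kinases PLK1, BUB1 and TTK had -0.11 ± 0.12, -0.11 ± 0.14 and -0.03 ± 0.13, and UBE2C, the ubiquitin-conjugating enzyme of the APC/C, had -0.03 ± 0.15.

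The 14 genes of chromosomes, spindle and cytokinesis all lay below 0, with a median of -0.17. In edgeR, DESeq2 and limma-voom 0 passed, with 2 lower at an unadjusted p under 0.05 in edgeR (14.3%, against 8.21% of all genes tested). SMC4 (ENSG00000113810.15, chr3:160399274-160434962, plus strand), a core subunit of condensin, had 60.0, 63.0 and 64.5 CPM in controls and 51.8, 52.9 and 56.2 CPM in knockdowns. All the knockdown libraries lay below all the controls. The means were 62.5 ± 2.28 and 53.7 ± 2.30 CPM (SD, n = 3), at -0.22 ± 0.06 (edgeR adjusted p = 0.0576, 0.0412 with the replicate number as a block and 0.0223 without control replicate 1). SMC4 overlaps IFT80 and TRIM59 on the opposite strand. Its condensin partners had smaller differences relative to their error, at -0.08 ± 0.10 for SMC2 and -0.20 ± 0.12 for NCAPG.

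KIF11, the motor that pushes the spindle poles apart, had 10.4, 12.3 and 13.5 CPM in controls and 10.2, 8.21 and 9.69 CPM in knockdowns. The groups were apart, with control replicate 1 and knockdown replicate 1 nearly level, at -0.37 ± 0.13 (edgeR adjusted p = 0.15). MKI67, whose protein Ki-67 coats mitotic chromosomes and is the usual marker of cycling cells, had 53.1, 63.0 and 66.1 CPM against 54.6, 56.8 and 56.8 CPM. Control replicate 1 was the lowest of the 6 libraries for MKI67, and the log2 fold change was -0.12 ± 0.07 (edgeR adjusted p = 0.493). TOP2A, the topoisomerase that untangles sister chromatids, showed the same low control: it had 48.9, 59.5 and 62.1 CPM against 59.9, 50.2 and 57.6 CPM, at -0.03 ± 0.08 (edgeR adjusted p = 0.923). The kinetochore genes CENPE and CENPF had -0.19 ± 0.11 and -0.04 ± 0.11. The spindle genes TPX2 and NUSAP1 had -0.19 ± 0.09 and -0.16 ± 0.08. Among the genes of cytokinesis, KIF20A had -0.26 ± 0.17, KIF23 -0.17 ± 0.11, its centralspindlin partner RACGAP1 -0.17 ± 0.14, and the microtubule bundler PRC1 -0.05 ± 0.10.

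**Figure D2:**
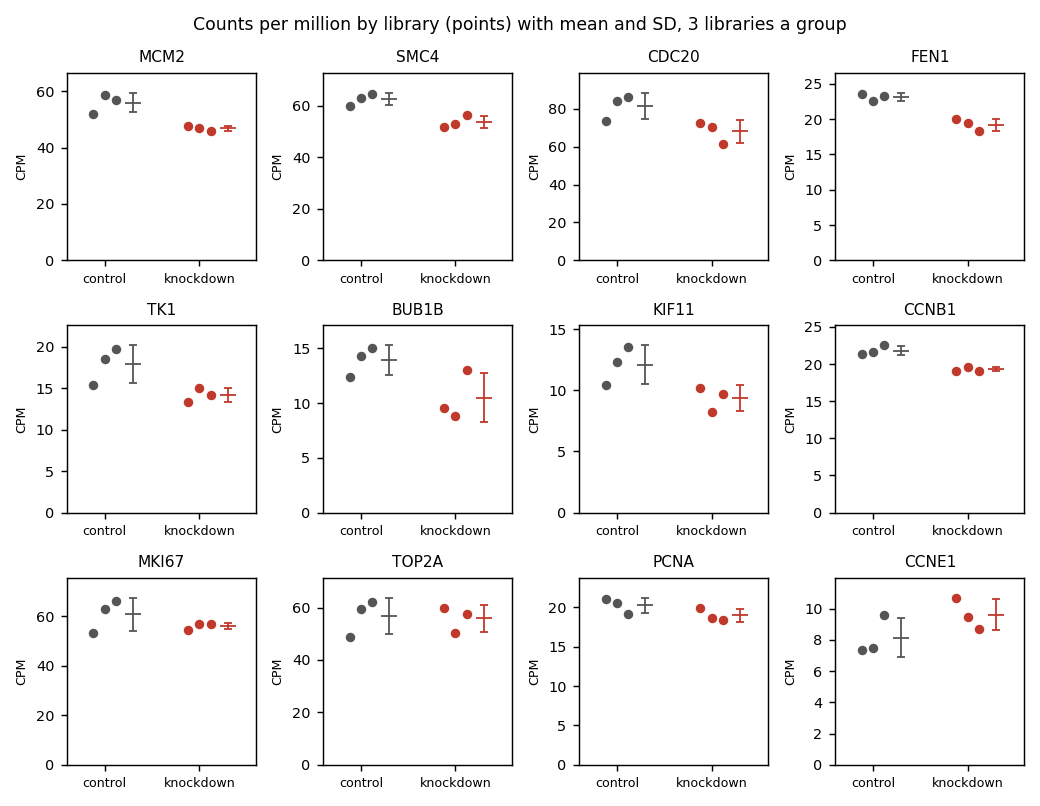
CPM (y axis, from 0) of 12 of the genes in each of the 3 control and 3 knockdown libraries (points, in replicate order), with the group mean and SD beside them. The groups are apart for MCM2, SMC4, CDC20, FEN1, TK1, KIF11 and CCNB1, and overlap for BUB1B, MKI67, TOP2A, PCNA and CCNE1.

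The 50 genes moved with the library as well as with the group. Relative to each gene's own mean over the 6 libraries, the median log2 deviation of the 50 genes was -0.01, 0.08 and 0.15 in control replicates 1 to 3 and -0.08, -0.07 and -0.04 in knockdown replicates 1 to 3. On these medians the knockdown libraries were closer together than the controls, and control replicate 1 was nearest the knockdowns. By role, knockdown replicate 3 stood above the other knockdowns for mitotic kinases, checkpoint and APC/C (0.07 against -0.11 and -0.04) and for chromosomes, spindle and cytokinesis (0.01 against -0.10 and -0.12), and above control replicate 1 in both (-0.02 and -0.03). Control replicate 1 was the lowest control for 32 of the 50 genes, and control replicate 3 was the highest of all 6 libraries for 29. The summed level of the 50 genes was 1180, 1260 and 1320 CPM in controls and 1140, 1130 and 1150 CPM in knockdowns. Their share of the counts was 0.116%, 0.124% and 0.132% against 0.115%, 0.113% and 0.116%. The CPM, unlike the shares, use the TMM factors, which were 0.9856, 0.9868 and 0.9956 in controls and 1.012, 1.0066 and 1.0137 in knockdowns. In the shares control replicate 1 was level with knockdown replicate 3. The 13 mRNAs encoded by mitochondrial DNA followed the same order among the controls: they took 1.88%, 2.30% and 2.54% of the counts in controls and 2.10%, 2.02% and 2.09% in knockdowns. Of these 13 mRNAs 12 lay below 0 (92.3%, against 50.6% of all genes tested), with a median of -0.16. In edgeR 1 passed as lower (7.69%, against 1.61%). At an unadjusted p under 0.05 in edgeR, 5 were lower (38.5%, against 8.21%) and 0 higher (against 6.89%). The part of these mRNAs in the result for the 50 genes was not tested.

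**Figure D3:**
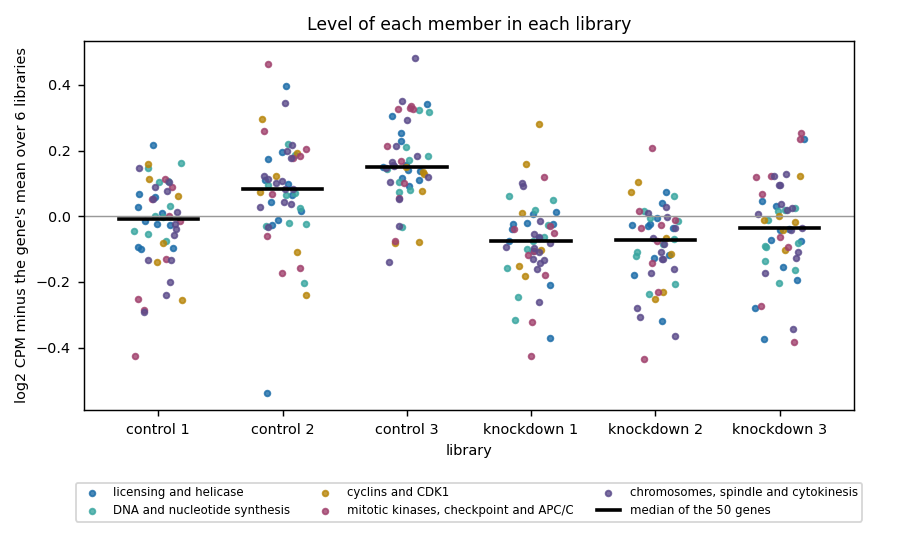
Level of each of the 50 genes (points, coloured by role) in each library (x axis), as log2 CPM minus the gene's mean over the 6 libraries (y axis). Black bars are the medians of the 50 genes, which stand at -0.01, 0.08 and 0.15 in the controls and between -0.08 and -0.04 in the knockdowns.

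Most of the promoters found for these genes carry sequence words of the 2 programmes, and some of the words differ in frequency between the roles. RefSeq promoters (GRCh38.p14, 250 bases before to 50 after the start) were matched by symbol for 41 of the 50 genes. They were searched on both strands for the CHR, the cell cycle genes homology region bound by MuvB. Its word was spelled TTTGAA or, in its other form, TTCGAA. They were also searched for the CCAAT box of the factor NF-Y, spelled as its name. The E2F word was spelled TTCCCGC, with the further forms TTGGCGC and also TTCGCGC and likewise TTGCCGC. For 7 genes chosen to show both layouts, the 150 bases before the RefSeq start are printed 5′ to 3′ along the gene, with every word in capitals. A word on the other strand reads ATTGG for the CCAAT box and TTCAAA for the CHR.
MCM6 (chr2:135876444-135876593, minus strand): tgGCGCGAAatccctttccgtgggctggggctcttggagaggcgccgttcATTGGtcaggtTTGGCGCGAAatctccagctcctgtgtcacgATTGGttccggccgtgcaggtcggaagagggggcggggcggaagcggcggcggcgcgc
PCNA (chr20:5126623-5126772, minus strand): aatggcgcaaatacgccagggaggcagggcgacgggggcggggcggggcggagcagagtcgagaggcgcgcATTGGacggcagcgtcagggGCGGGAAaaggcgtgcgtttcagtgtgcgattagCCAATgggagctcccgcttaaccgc
POLE (chr12:132687343-132687492, minus strand): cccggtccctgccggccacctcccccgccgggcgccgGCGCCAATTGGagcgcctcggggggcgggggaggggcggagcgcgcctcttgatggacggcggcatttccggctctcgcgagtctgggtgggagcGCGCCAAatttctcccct
CDK1 (chr10:60778181-60778330, plus strand): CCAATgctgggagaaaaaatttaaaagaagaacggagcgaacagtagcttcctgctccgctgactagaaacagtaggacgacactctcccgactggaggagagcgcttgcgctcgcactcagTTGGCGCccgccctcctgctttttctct
CDC20 (chr1:43358831-43358980, plus strand): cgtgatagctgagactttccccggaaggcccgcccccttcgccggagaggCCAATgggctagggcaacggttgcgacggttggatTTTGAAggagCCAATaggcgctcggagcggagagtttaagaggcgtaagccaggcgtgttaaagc
MKI67 (chr10:128126424-128126573, minus strand): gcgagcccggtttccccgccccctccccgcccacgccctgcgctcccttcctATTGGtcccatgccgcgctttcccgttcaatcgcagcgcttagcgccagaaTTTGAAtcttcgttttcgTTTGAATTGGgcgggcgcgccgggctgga
KIF11 (chr10:92592980-92593129, plus strand): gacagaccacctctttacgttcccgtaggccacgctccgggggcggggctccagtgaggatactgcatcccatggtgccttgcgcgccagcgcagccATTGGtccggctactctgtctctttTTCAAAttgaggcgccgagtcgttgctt
In the printed stretches of MCM6, PCNA and POLE, genes of replication, E2F words stand beside CCAAT boxes and no CHR is present. MCM6 is 1 of the 2 replication genes with a CHR, which begins at -246, outside its printed stretch. PCNA has CCAAT boxes at -79 to -75 (minus strand) and -25 to -21 (plus strand) around an E2F word at -59 to -53, counted from the base before the start as -1. In CDC20 a CHR at -65 to -60 lies between CCAAT boxes at -100 to -96 and -55 to -51. In MKI67 the CHR at -29 to -24 shares a base with a CCAAT box at -24 to -20, and in KIF11 a CHR lies at -28 to -23 with a CCAAT box at -53 to -49. CDK1 holds an E2F word at -28 to -22 and a CCAAT box at -150 to -146, and its CHR lies outside the stretch shown. MCM2, the gene past the threshold, has no word before its RefSeq start and a pair of overlapping E2F words just after it. A match describes the letters and is not evidence of binding.

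Over the list, an E2F word was present in 14 of 19 replication genes (73.7%) and 5 of 22 cyclin and mitosis genes (22.7%), against 20.5% of the 9780 promoters of genes tested and 13.1% of all 27305 promoters. The CHR showed the opposite layout, with 2 of 19 (10.5%) and 16 of 22 (72.7%), against 11.4% and 16.6%. Within the cyclins and CDK1 the CHR and the E2F word were equally frequent, each in 2 of 5 promoters (40.0%). CCAAT boxes were common to both, with 13 of 19 (68.4%) and 16 of 22 (72.7%), against 36.9% and 35.7%. An E2F word and a CCAAT box occurred together in 13 members and overlapped in 3 of these, as in POLE. The median log2 fold change was -0.11 for the 18 members with a CHR and -0.16 for the 19 with an E2F word, and -0.23 for the 4 members with none of the words. Among all genes tested, members included, the 1112 with a CHR had a median of -0.03 with 57.7% below 0. The 473 with both a CHR and a CCAAT box had -0.03 with 58.8% below 0. The 2008 with an E2F word had -0.01 with 54.5% below 0, and the 4412 with none of the 3 words had 0.01 with 48.6%.

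**Figure D4:**
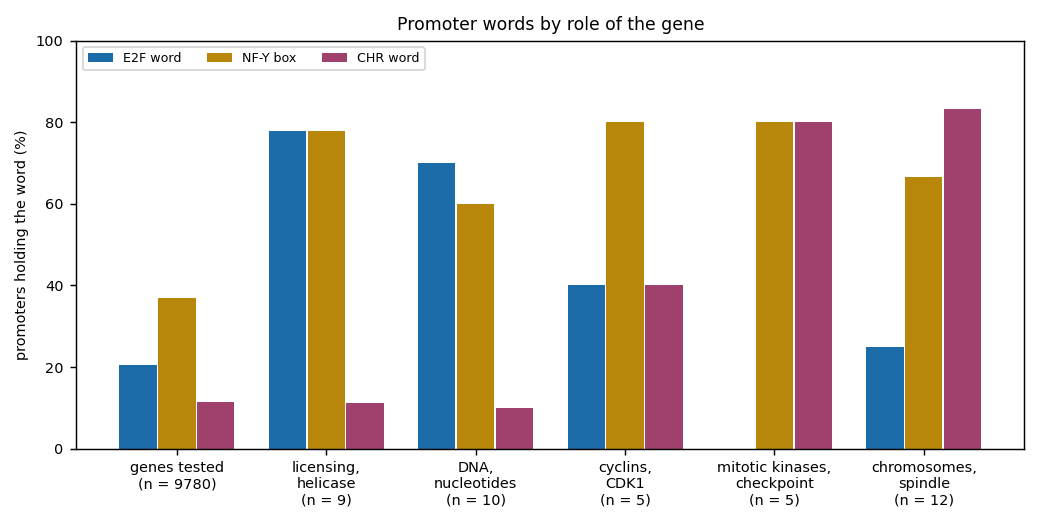
Share of promoters (y axis, percent) that hold an E2F word, an NF-Y box (the CCAAT box) or a CHR word, for all genes tested and for each role of the 50 genes (x axis, with the number of promoters). E2F words are most frequent in the replication roles (77.8% and 70.0%), and CHR words in the mitotic kinase and the chromosome and spindle roles (80.0% and 83.3%).

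Levels were compared between genes per kilobase (kb) of the longest protein-coding transcript in GENCODE 29. The median of the 50 genes was 4.61 CPM per kb against 7.50 for 11922 protein-coding genes, and 17 of the 50 lay above that median. The highest was CDC20 at 42.1 CPM per kb, at the 87.8th percentile, and the lowest was MCM10 at 1.09. CDC20 has a pseudogene copy that could share its reads. Further members not marked above also have pseudogene copies, among them RRM2, AURKA and UBE2C, and PRIM1 overlaps NACA on its own strand. Licensing and helicase genes had the highest median of the 5 roles, 11.4 CPM per kb, and chromosome, spindle and cytokinesis genes the lowest, 3.63. The subunits of the helicase ring sit in it in equal number, and their transcripts in controls ran from 11.6 ± 0.978 CPM per kb for MCM6 to 20.4 ± 0.941 for MCM3 (SD, n = 3). In order, the controls had 20.4 for MCM3, 20.0 for MCM5, 18.4 for MCM4, 15.4 for MCM2, 14.0 for MCM7 and 11.6 for MCM6, and of the neighbours in this order MCM3 and MCM5 alone differed by less than the SD of either. The helicase ring was far above its loaders and activators: CDC6 had 2.00, CDT1 2.78, CDC45 2.47, GINS2 1.33 and MCM10 1.26 CPM per kb in controls. Other partners also differed, with RRM1 at 17.6 and RRM2 at 4.83, CCNB1 at 10.1 and CCNB2 at 4.40, and SMC4 at 11.4 against SMC2 at 4.16 and NCAPG at 2.68 CPM per kb in controls. These values assume that the longest transcript is the one present.

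**Figure D5:**
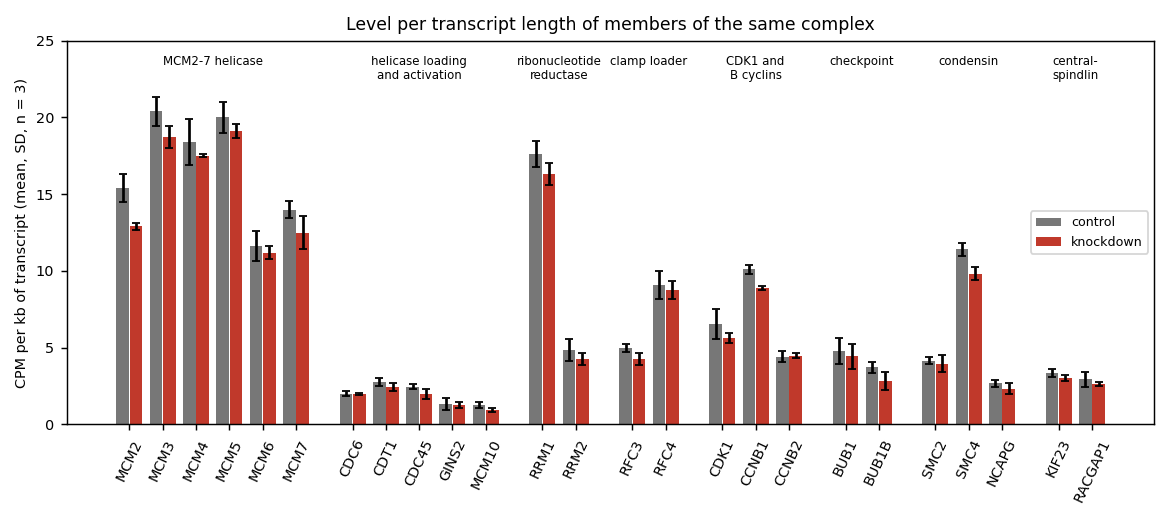
CPM per kb of transcript (y axis, from 0) for genes of the same complex or step (x axis), as group means of 3 libraries with SD, control in grey and knockdown in red. The helicase ring runs from 11.2 to 20.4 CPM per kb, and its loaders and activators reach at most 2.78.

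Genes of the same pathways outside the 50 also lay mostly below 0, with medians nearer to 0. Of 45 other replication genes 0 passed in edgeR, DESeq2 or limma-voom. At an unadjusted p under 0.05 in edgeR, 7 were lower (15.6%, against 8.21% of all genes tested) and 1 higher (2.22%, against 6.89%). Below 0 lay 34 (75.6%, against 50.6%), and the median was -0.08. All 3 knockdown libraries lay below all 3 controls for 11 (24.4%, against 10.4%) and above them for 2 (4.44%, against 9.61%). Of 64 other mitosis genes 1 passed in edgeR and was lower (1.56%, against 1.61% of all genes tested). At an unadjusted p under 0.05 in edgeR, 8 were lower (12.5%, against 8.21%) and 0 higher (against 6.89%). Below 0 lay 50 (78.1%, against 50.6%), and the median was -0.11. All 3 knockdown libraries lay below all 3 controls for 7 (10.9%, close to the 10.4% of all genes tested) and above them for 1 (1.56%, against 9.61%). The gene that passed was LMNB1, for lamin B1 of the nuclear envelope, which is taken apart in mitosis. LMNB1 had 53.3, 61.1 and 62.4 CPM in controls and 48.2, 40.8 and 45.4 CPM in knockdowns. The groups were apart, and LMNB1 fell by 0.40 ± 0.08 on the log2 scale (edgeR adjusted p = 0.00805). Leaving out control replicate 2 gave an edgeR adjusted p of 0.0726, and leaving out knockdown replicate 2 gave 0.0842.

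Of 30 regulators of these programmes (the E2F, DREAM, MuvB and FOXM1 factors and the CDK inhibitors) 29 were tested in edgeR. Of these 2 passed (6.9%, against 1.61% of all genes that passed as lower), and both were lower. At an unadjusted p under 0.05 in edgeR, 3 were lower (10.3%, against 8.21%) and 2 higher (6.9%, against 6.89%). Below 0 lay 19 (65.5%, against 50.6%), and the median was -0.04. All 3 knockdown libraries lay below all 3 controls for 5 (17.2%, against 10.4%) and above them for 2 (6.9%, against 9.61%). MYBL2 (ENSG00000101057.15, chr20:43667019-43716496, plus strand), the Myb protein that activates mitotic genes with MuvB, had 18.9, 21.7 and 22.4 CPM in controls and 14.8 ± 0.297 CPM (SD, n = 3) in knockdowns. The knockdown libraries were level and all below the controls. MYBL2 fell by 0.51 ± 0.09 on the log2 scale (edgeR adjusted p = 0.00662, and 0.055 without knockdown replicate 2). TFDP1, the partner through which E2F proteins bind DNA, had 60.9, 67.7 and 69.9 CPM against 56.1, 55.3 and 54.9 CPM. TFDP1 fell by 0.26 ± 0.06 (edgeR adjusted p = 0.0332, and 0.0537 in DESeq2), and it lost the call without any 1 library other than control replicate 1. Other regulators named after their values were seen did not pass: E2F1 had -0.20 ± 0.15, E2F4 -0.17 ± 0.06, FOXM1 -0.06 ± 0.19, RB1 -0.02 ± 0.05 and the CDK inhibitor CDKN1B 0.20 ± 0.07. The E2F genes with the largest estimates lay above 0: E2F2, an activator, had 1.80, 3.27 and 3.95 CPM in controls and 3.64, 4.70 and 5.91 CPM in knockdowns, at 0.66 ± 0.25 (edgeR adjusted p = 0.213), and E2F5 had 0.55 ± 0.29 (adjusted p = 0.389). CDKN1A, the CDK inhibitor p21, had 1450, 1470 and 1440 CPM in controls and 1530, 1600 and 1500 CPM in knockdowns. Its knockdown libraries all lay above the controls, at 0.08 ± 0.04 (edgeR adjusted p = 0.367).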

How the data were processed

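Polyadenylated RNA of 3 control and 3 knockdown THP-1 libraries was compared, grouped by the sample titles. Whole-number expected counts for each gene symbol were deposited by the authors, and the submitters' processing notes name Salmon 0.11.2, DESeq2 and hg38 without roles. The lowest row sum was 10, and genes below that are not analysed here. Salmon's counts are estimates that split reads between genes sharing sequence. Use of strand is not given. Totals ran from 10450043 to 14181343 counts.

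No count was changed, and edgeR 4.0.16 was run with its quasi-likelihood test (R 4.3.3, TMM factors, the filterByExpr filter, a term for group, two-sided, Benjamini-Hochberg adjustment over 13405 genes, threshold 0.05). The SE is approximate: the size of the log2 fold change over the root of the F statistic. The 50 genes and all lists were chosen with earlier results of these data known. By rule the text names members past the threshold, in each role the 2 with the highest mean CPM and the 2 with the smallest p, 5 set genes (MKI67, TOP2A, PCNA, CCNB1, CDK1), members of shared complexes, and other pathway genes past the threshold. This rule gave 20 members without the complexes, and the other members were named after their values were seen.

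Positions and transcript lengths came from GENCODE 29 (GRCh38) and promoters from RefSeq (GRCh38.p14), whose starts differ for some genes. Libraries of a group were not duplicates (chi-square per degree of freedom 1.90 to 6.79). Alternatives were DESeq2 1.42.0, limma-voom 3.58.1, RLE and upper-quartile factors, no filter, at least 1 CPM in 3 libraries, the replicate number as a block, and leaving out each library. The test was checked on simulated data. There 36.67% of genes changed 1.25-fold and 86.67% of those changed 2-fold were called, and 7.49% of the calls were unchanged genes. Changes smaller than 1.25-fold were not simulated.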

Additional observations from a re-analysis of the deposited data

How the results depend on the processing

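MCM2 alone of the 50 genes passed with TMM, RLE or upper-quartile factors, the 1 CPM filter and limma-voom. With DESeq2 0 members were lower past the threshold, without a filter 0 (MCM2 at an adjusted p of 0.0505), and with the replicate block 2 (MCM2 and SMC4). Leaving out each library gave 0 to 4 members (4 without control replicate 1: MCM2, TK1, CDC20 and SMC4), 0 to 2 other mitosis genes, 0 to 2 regulators, and over all genes 55 to 214 higher and 84 to 328 lower against 163 and 216. DESeq2 called 1 regulator. The members' median ran from -0.18 to -0.10 and 37 to 48 lay below 0 over the same omissions. The replicate numbers were not taken to pair the samples in the main test. Same-numbered libraries correlated at 0.046 to 0.1 in their deviations from the group mean, and other pairs at -0.085 to 0.001. All 6 libraries correlated best with their own number. Each match is counted from both of its libraries, so these are not 6 separate matches, and they are only a hint from the data.

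Log2 fold changes near 0 changed sign when 1 library was left out, most often control replicate 3, and the cause was not tested: they ran from -0.10 to 0.02 for MCM6, -0.05 to 0.06 for CDC6, -0.28 to 0.13 for GINS2, -0.13 to 0.07 for PRIM1, -0.10 to 0.03 for RFC4, -0.05 to 0.15 for CCNE2, -0.01 to 0.10 for CCNB2, -0.13 to 0.0028 for AURKA, -0.18 to 0.29 for AURKB, -0.27 to 0.04 for BUB1, -0.24 to 0.04 for PLK1, -0.13 to 0.15 for TTK, -0.16 to 0.08 for UBE2C, -0.12 to 0.05 for TOP2A, -0.17 to 0.11 for CENPF, -0.12 to 0.02 for PRC1 and -0.16 to 0.03 for SMC2. With DESeq2 CDC6 had 0.00085. With RLE and upper-quartile factors CDC6 had 0.0013 and 0.0026 and AURKB 0.00083 and 0.0020. AURKB had 0.01 in limma-voom and 0.0025 with the replicate block.

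Counts per library went down to 12 for the members, and 11 of the 50 had a mean under 10 CPM. With 3 libraries a group, the standard errors ran from 0.06 to 0.32 with a median of 0.11. A difference of the members' median size, -0.14, lies near or within the error of the genes with the larger standard errors. For genes with the smallest it exceeds the error, as in MCM3 (-0.13 ± 0.06), which did not pass.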

Other observations

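The replication-dependent histones, whose mRNAs are made in S phase and mostly lack a poly(A) tail, were also counted in these polyadenylated libraries. Of 12 histone genes listed 10 were in the table, and 0 passed in edgeR. At an unadjusted p under 0.05 in edgeR, 2 were lower and 0 higher (20.0% and 0.0%, against 8.21% and 6.89% of all genes tested). Below 0 lay 6 of 10 (60.0%, against 50.6%), with a median log2 fold change of -0.13. Their summed level was 198, 197 and 194 CPM in controls and 179, 184 and 182 CPM in knockdowns. All 3 knockdown libraries lay below the controls for this sum, which includes H2AFX, the gene of the 10 with the highest level. Taken singly, H2AFX alone of the 10 had all its knockdown libraries below all its controls. The separation of the sum is therefore not shown for the other histones. H2AFX, the variant marked at DNA breaks, was named after its value was seen. It had 53.9, 62.1 and 63.2 CPM in controls against 48.5, 51.2 and 52.5 CPM in knockdowns, at -0.24 ± 0.07 (edgeR adjusted p = 0.078, 0.0369 with the replicate block, and 0.00579 without control replicate 1 to 0.307 without control replicate 2). HIST2H2AA3, also named after its values were seen, had -0.23 ± 0.10 (edgeR adjusted p = 0.293, and 0.0295 without control replicate 3 to 0.706 without control replicate 2).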
